A study of Mus musculus with 6 samples.

Results

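The 9 genes described here encode nuclear receptors that the liver uses to sense xenobiotics, bile acids, oxysterols, thyroid hormone, glucocorticoids and related ligands. They were chosen by gene symbol, as the Ensembl identifiers of Nr1h4, Nr0b2, Nr1h3, Nr1i2, Nr1i3, Rxra, Thrb, Nr3c1 and Rora. The rule itself used no measured value, but the choice was made with earlier results of these data known. All 9 are among the 37991 genes of the count tables, and all 9 are among the 17558 genes with enough counts to be tested.

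RNA of 6 mouse tissue samples was sequenced, 2 in each of 3 groups. The tumour group holds primary tumours of mice labelled TgAlbCreKap1lox, in which the Kap1 gene (Trim28) is deleted by a Cre recombinase under the albumin promoter. The KAP1-deleted liver group holds liver tissue of mice with the same label, and by their codes the tumours and these livers come from the same 2 mice. The control liver group holds liver tissue of TgAlbCre mice, which carry the Cre transgene and whose label names no floxed Kap1. All mice were 35 weeks old and had been on a diet labelled HFD for 27 weeks. The albumin promoter acts in hepatocytes, so other cells of the tissue keep the gene. Sex, strain and how the tumours were cut from the liver were not given in the sources used here.

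Nuclear receptors are transcription factors whose activity is set by small lipophilic ligands. Most of those described here bind DNA as a pair with RXR alpha, the product of Rxra, at repeats of a short half-site, while the glucocorticoid receptor binds as a pair with itself and ROR alpha binds alone. In hepatocytes they switch genes of detoxification, bile acid synthesis, lipid synthesis and glucose output, and much of their activity is set by ligand and co-regulators rather than by the amount of their own RNA.

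Depth was 39723997 to 62178752 gene counts per library, and levels are given as CPM, the depth-scaled count of a gene, with library sizes scaled by TMM (trimmed mean of M values). Trim28 stood at 5.22 and 4.59 CPM in tumours 1 and 2, 5.06 and 6.02 CPM in livers 1 and 2 with KAP1 deleted, and control livers 1 and 2 had 32.5 and 35.9 CPM, lowest in both groups labelled with the deletion. The summed level of 5 hepatocyte markers was 22990 and 41810.5 CPM in the tumours, 63865 and 76346 CPM in the KAP1-deleted livers and 71679 and 86222 CPM in the control livers. Most of that sum was Alb, at 18162 and 34887 CPM, 53805 and 64523 CPM, and 61369 and 74525 CPM in the same order. All 5 had log2 fold changes below 0 in both tumour comparisons, and 1 of 5 passed the edgeR test as lower in each. Summed levels of 7 Kupffer cell and macrophage markers were 208 and 243 CPM in the tumours, 492 and 469 CPM in the KAP1-deleted livers and 462 and 452 CPM in the control livers, and those of 6 cholangiocyte markers, 1 of them at 0 in at least 1 library, were 3.05 and 22.0, 27.9 and 34.5, and 15.5 and 31.8 CPM in the same order. Entries that name no gene took 36.7% and 33.1% of the counted reads in the tumours, 24.8% and 20.9% in the KAP1-deleted livers, and 27.6% and 20.9% in the control livers. TMM factors were 1.31 and 1.22 in the tumours and 0.864 to 0.948 in the 4 livers, so both tumours stood apart on both measures. Bulk tissue cannot tell fewer cells of a type from less RNA per cell, and the part of these marker and library shifts in the results on tumours was not tested.

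The promoters of the bile acid receptor gene Nr1h4, of its target Nr0b2 and of Rxra are shown because Nr1h4 and Rxra are the receptor genes that passed the test in tumours and Nr0b2 has the widest range of the 9. Each line gives the 250 bases before an annotated start, 5′ to 3′ on the gene's own strand, from RefSeq (GRCm38.p6): chr10:89506659-89506908, minus strand, for Nr1h4; chr4:133553126-133553375, plus strand, for Nr0b2; and chr2:27709042-27709291, plus strand, for the second listed start of Rxra.
Nr1h4: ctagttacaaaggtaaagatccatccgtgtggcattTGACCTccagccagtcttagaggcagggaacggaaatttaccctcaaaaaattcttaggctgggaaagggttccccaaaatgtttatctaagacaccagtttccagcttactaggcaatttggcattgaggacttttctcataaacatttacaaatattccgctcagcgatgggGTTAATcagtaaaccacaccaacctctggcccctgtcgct
Nr0b2: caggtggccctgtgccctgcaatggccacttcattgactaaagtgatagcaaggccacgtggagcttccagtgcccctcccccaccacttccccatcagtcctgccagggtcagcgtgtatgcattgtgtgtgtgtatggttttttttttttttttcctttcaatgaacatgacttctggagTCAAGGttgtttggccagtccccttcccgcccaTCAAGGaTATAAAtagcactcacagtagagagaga
Rxra: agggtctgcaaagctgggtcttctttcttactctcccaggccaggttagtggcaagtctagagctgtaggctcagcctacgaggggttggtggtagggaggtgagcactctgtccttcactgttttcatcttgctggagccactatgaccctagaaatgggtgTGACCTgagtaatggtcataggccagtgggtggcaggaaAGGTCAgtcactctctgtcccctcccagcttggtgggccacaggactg
Capitals mark exact matches to 4 short motifs, each searched on both strands. The nuclear receptor half-site is AGGTCA, which reads TGACCT on the other strand. The core read by NR5A2 is TCAAGG and the half-site read by HNF1 is GTTAAT. The TATA box was searched as TATAAA, and no motifs overlap in the windows shown. Nr0b2 has TCAAGG 68 and 35 bases before its start and TATAAA 28 bases before it. Nr1h4 has TGACCT 214 bases and GTTAAT 40 bases before its start, and Rxra has TGACCT 87 bases and AGGTCA 48 bases before its second start, while the window before its first start, at chr2:27676951-27677200, holds none of the 4 motifs. Of 32851 mouse promoter windows of this length, 14.0% hold the half-site, 12.5% the NR5A2 core, 6.43% the HNF1 half-site and 12.4% the TATA box, so a match is a description of the letters. The RNA counts do not show which start was used.

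Nr1h4 encodes FXR, the bile acid receptor, which restrains bile acid synthesis and drives bile salt export. The gene (ENSMUSG00000047638) lies at chr10:89454234-89533585 on the minus strand of GRCm38, and the promoter start shown above is an internal one. Its level was 91.1 and 81.4 CPM in tumours, 123 and 112 CPM in the KAP1-deleted livers, and 155 and 149 CPM in control livers. The 3 groups did not overlap, with the tumours lowest and the control livers highest. In tumours Nr1h4 fell against control livers, with a log2 fold change of -0.81 ± 0.17 (SE, n = 2 each), or 0.568 of the control level, and an adjusted p of 0.0216 (edgeR quasi-likelihood test, Benjamini-Hochberg over all genes tested). Without tumour 1 or tumour 2 the edgeR adjusted p was 0.0755 and 0.111, in a range of 0.000571 to 0.111 over the alternatives, while the log2 fold change stayed between -0.90 and -0.74. Against KAP1-deleted livers the tumours' log2 fold change was -0.44 ± 0.17 (edgeR adjusted p 0.136), and KAP1-deleted against control livers gave -0.37 ± 0.17 (edgeR adjusted p 0.986).

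Nr0b2 encodes SHP, a receptor-like protein without a DNA-binding domain that FXR induces and that represses other receptors. The gene (ENSMUSG00000037583) lies at chr4:133553376-133556536 on the plus strand. Its level was 1.89 and 4.0 CPM in tumours, 6.02 and 7.22 CPM in the KAP1-deleted livers, and 4.94 and 9.90 CPM in control livers. Both tumours lay below all 4 livers, while the control livers spanned the KAP1-deleted ones. The log2 fold change of tumours was -1.18 ± 0.43 against KAP1-deleted livers (edgeR adjusted p 0.118) and -1.35 ± 0.43 against control livers (edgeR adjusted p 0.0787). With the mouse code as a replicate block the first comparison had an edgeR adjusted p of 0.00347 on 1 residual degree of freedom, in a range of 0.000352 to 0.418 over the alternatives. KAP1-deleted against control livers gave -0.17 ± 0.42 (edgeR adjusted p 1.0), with an interval of -1.14 to 0.80 that includes a fall of 1 log2 unit. With a similar SE, -1.35 in tumours against control livers did not pass. A change of more than 1 log2 unit could thus be missed.

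Rxra encodes the common partner of FXR, LXR, PXR, CAR and the thyroid hormone receptors. The gene (ENSMUSG00000015846) lies at chr2:27676440-27762957 on the plus strand. It stood at 130 and 114 CPM in tumours, 159 and 198 CPM in the KAP1-deleted livers, and 200.4 and 261 CPM in control livers. Again the 3 groups did not overlap and the tumours were lowest. Rxra fell in tumours against control livers, with a log2 fold change of -0.92 ± 0.22, or 0.528 of the control level (edgeR adjusted p 0.0312). The edgeR adjusted p was 0.101 without control liver 2, 0.101 without tumour 1 and 0.151 without tumour 2, in a range of 0.00236 to 0.151 over the alternatives. Tumours against KAP1-deleted livers gave -0.55 ± 0.22 (edgeR adjusted p 0.143) and KAP1-deleted against control livers -0.37 ± 0.22 (edgeR adjusted p 1.0).

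Nr1h3 encodes LXR alpha, the oxysterol receptor that turns on cholesterol export and fatty acid synthesis. It had 52.1 and 51.5 CPM in tumours, 79.3 and 85.1 CPM in the KAP1-deleted livers, and 56.6 and 85.6 CPM in control livers. The tumours were nearly equal and below every liver, but control liver 1 was close to them. The log2 fold change of tumours was -0.67 ± 0.22 against KAP1-deleted livers (edgeR adjusted p 0.0878) and -0.46 ± 0.22 against control livers (edgeR adjusted p 0.203). With the replicate block by mouse the first had an edgeR adjusted p of 0.0211, and it was 0.0236 without control liver 1 and 0.0278 without control liver 2, in a range of 0.0211 to 0.331 over the alternatives. Without control liver 1 the second had an edgeR adjusted p of 0.0340, in a range of 0.0340 to 0.749.

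**Figure D1:**
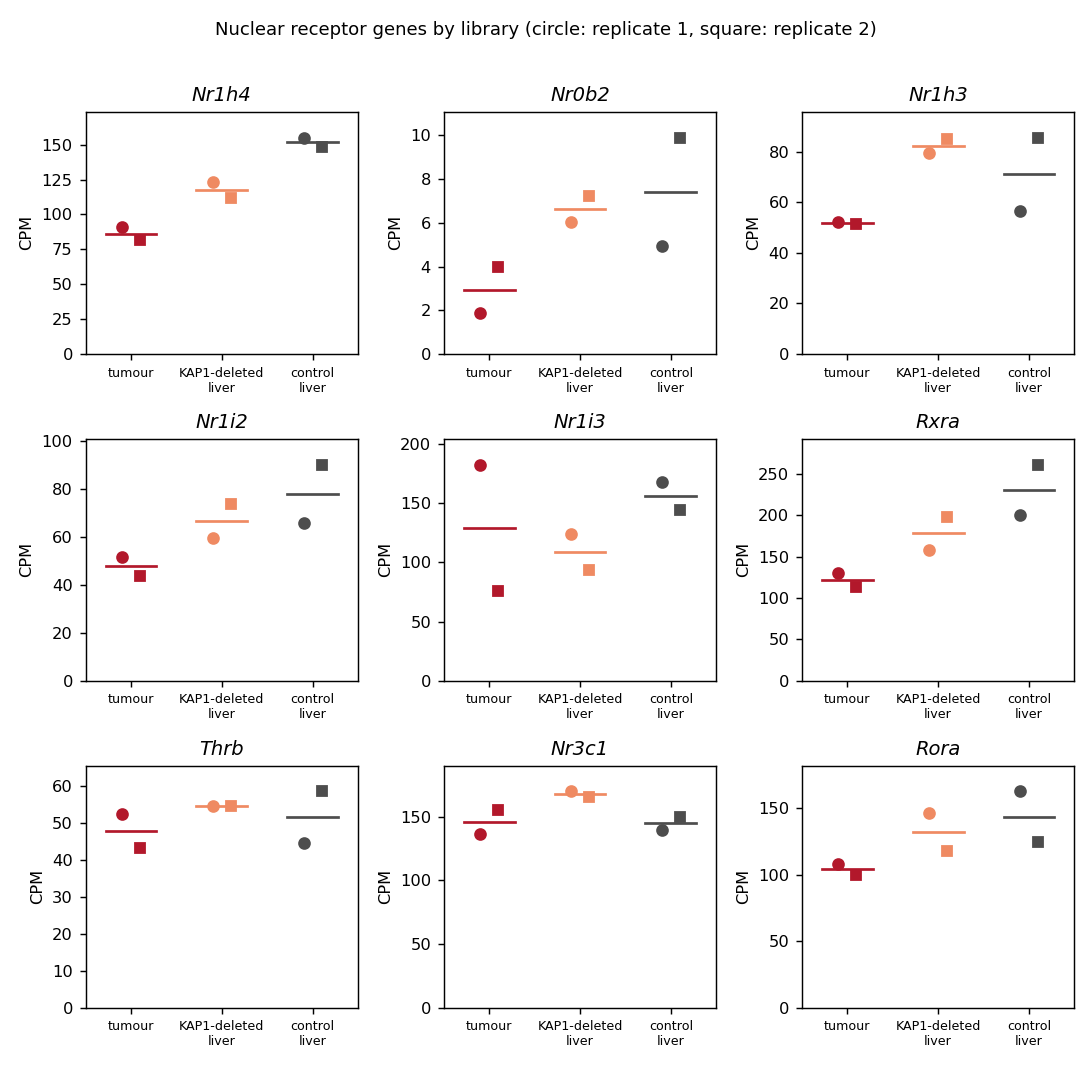
Level of each receptor gene in CPM (vertical axes from 0) in tumours, KAP1-deleted livers and control livers. Points are the libraries of replicate 1 (circle) and replicate 2 (square), and bars are group means. The tumours lie below both other groups for Nr1h4, Nr0b2, Nr1h3, Nr1i2, Rxra and Rora, while the Nr1i3 tumours stand at 183 and 75.9 CPM on either side of the KAP1-deleted livers.

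Nr1i2 encodes PXR and Nr1i3 encodes CAR, the receptors that sense drugs and other xenobiotics and turn on cytochrome P450 and transporter genes. Nr1i2 had 51.6 and 43.7 CPM in tumours, 59.6 and 73.6 CPM in the KAP1-deleted livers, and 65.7 and 90.1 CPM in control livers. The tumours were below all livers, which overlapped among themselves. The log2 fold change of tumours was -0.71 ± 0.22 against control livers (edgeR adjusted p 0.0680) and -0.48 ± 0.22 against KAP1-deleted livers (edgeR adjusted p 0.185). Without control liver 1 the edgeR adjusted p against control livers was 0.0250, in a range of 0.0189 to 0.263 over the alternatives.

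Nr1i3 was the receptor on which the tumours differed most from each other, with 183 CPM in tumour 1 and 75.9 CPM in tumour 2. It had 124 and 93.9 CPM in the KAP1-deleted livers, and 168 and 144 CPM in control livers. Tumour 1 was above every liver and tumour 2 below every liver. The log2 fold change of tumours was 0.25 ± 0.38 against KAP1-deleted livers and -0.27 ± 0.38 against control livers (edgeR adjusted p 0.704 and 0.680). Most of the Nr1i3 exon length, 3304 of 4414 bases in the GRCm38 annotation, overlaps exons of Tomm40l on the other strand, and the strand setting of the counting was not given in the sources used here. Tomm40l counts were 12.6 and 5.35 CPM in tumours, 6.72 and 3.60 CPM in the KAP1-deleted livers, and 9.04 and 7.20 CPM in control livers, so reads of the pair may not be fully told apart.

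Thrb, Nr3c1 and Rora encode thyroid hormone receptor beta, the glucocorticoid receptor and ROR alpha, a constitutive receptor tied to the clock and to lipid genes. Thrb had 52.5 and 43.3 CPM in tumours, 54.6 and 54.6 CPM in the KAP1-deleted livers, and 44.4 and 58.5 CPM in control livers. Nr3c1 had 137 and 155 CPM in tumours, 170 and 166 CPM in the KAP1-deleted livers, and 140 and 150 CPM in control livers. Rora had 108 and 99.7 CPM in tumours, 146 and 117 CPM in the KAP1-deleted livers, and 162 and 125 CPM in control livers. Thrb and Nr3c1 in tumours overlapped the control livers, while Rora in tumours lay below all 4 livers. Against control livers the tumours' log2 fold change was -0.10 for Thrb (interval -0.56 to 0.35), 0.01 for Nr3c1 (interval -0.40 to 0.42) and -0.46 for Rora (interval -0.95 to 0.02; edgeR adjusted p 0.180). The interval of Nr3c1 allows changes of about 0.4 log2 units in either direction.

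**Figure D2:**
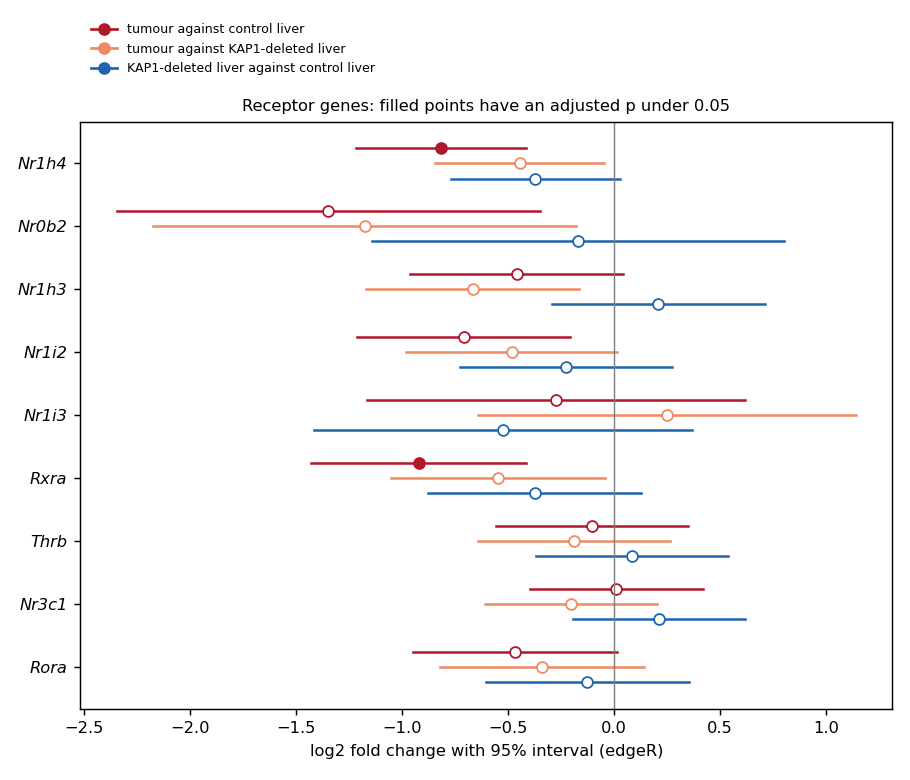
Log2 fold change (horizontal axis) with its 95% interval from edgeR for each receptor gene in 3 comparisons. Filled points have an adjusted p under 0.05: Nr1h4 at -0.81 and Rxra at -0.92 in tumours against control livers. The other points are open, and the interval of Nr3c1 in tumours against control livers runs from -0.40 to 0.42.

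Across the 9 genes, tumours were lower than KAP1-deleted livers in 8 without overlap, against 34.8% of all tested genes (28.7% were higher without overlap), and lower than control livers in 6, against 29.9% (26.5% higher). Nr1i3 was the exception in the first comparison, and Nr1i3, Thrb and Nr3c1 overlapped in the second. The median log2 fold change was -0.44 against KAP1-deleted livers and -0.46 against control livers, beside -0.03 and -0.02 over all tested genes. None of the 9 passed the edgeR test in tumours against KAP1-deleted livers, where 11.4% of all genes did (4.8% higher and 6.64% lower). At an unadjusted p under 0.05 there were 4 of 9 (Nr1h3, Nr0b2, Nr1h4 and Rxra), beside 29.1% of all genes, and the replicate block by mouse gave 2 of 9, DESeq2 0 of 9. In tumours against control livers 2 of 9 passed, both lower, where 7.76% of all genes were lower, 6.15% were higher and 13.9% passed either way. Without control liver 1 the count was 5, without control liver 2 it was 1, and without tumour 1 or tumour 2 it was 0. DESeq2 called 3, the third being Nr0b2 (adjusted p 0.0254). Both tumour comparisons share the tumour libraries, so their values are not separate evidence.

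KAP1-deleted livers against control livers gave no called receptor gene. The edgeR test called 0 of 9, while it called 0.336% of all genes (0.239% higher and 0.0968% lower). At an unadjusted p under 0.05 there were 0 of 9, beside 5.44% of all genes, and DESeq2 called 0 of 9. The libraries did not overlap for 3 genes that were lower (Nr1h4, Rxra and Nr1i3), where 14.6% of all genes were lower without overlap, and for 1 that was higher (Nr3c1), where 16.7% were. Of the genes on the lists of targets, handling genes, co-regulators and other receptors, edgeR called Trim24 higher and Cyp7b1, a ROR target, lower in this comparison. The Cyp7b1 call had a log2 fold change of -3.28 ± 0.39 (edgeR adjusted p 0.0244). It was lost from the 4 libraries compared (edgeR adjusted p 0.0766) and at a mean CPM of at least 5 (edgeR adjusted p 0.0538). It was also lost without either KAP1-deleted liver or either tumour, at log2 fold changes of -3.32 to -3.24. The median log2 fold change of the 9 receptor genes was -0.17, with a range of -0.52 for Nr1i3 to 0.21 for Nr3c1. With 2 libraries a group an exact permutation test cannot reach 0.05, and the edgeR p-values measure the spread between these libraries only.

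Per kilobase of exon, Nr1h4 had the highest group mean of the 9 in every group, with 37.5 ± 3.0 CPM per kb in tumours, 51.0 ± 3.45 in the KAP1-deleted livers and 65.9 ± 1.99 in control livers (SD, n = 2 each). The Nr1i3 value divides by 4414 bases, of which 3304 overlap Tomm40l exons, and the strand setting of the counting was not given. The rank of Nr1i3 and the summed ratio below hold only if reads in that overlap were counted, and for Nr1i3 alone. In tumours Nr1i3 averaged 29.3 ± 17.1 CPM per kb, a spread that reaches the level of Nr1h4, so these do not differ beyond it. Nr0b2 had the lowest mean, at 2.60 ± 1.32, 5.85 ± 0.754 and 6.55 ± 3.10 CPM per kb in the same groups. In control livers the order ran from Nr1h4 over Rxra (42.3 ± 7.89), Nr1i3 (35.4 ± 3.80), Nr1i2 (30.5 ± 6.75) and Nr1h3 (28.3 ± 8.13) to Nr3c1 (18.8 ± 0.943), Rora (11 ± 2.03), Thrb (6.95 ± 1.34) and Nr0b2. Neighbours from Rxra to Nr1h3, and Thrb and Nr0b2, do not differ beyond their spread. The summed CPM per kb of the genes whose products pair with RXR (Nr1i2, Nr1i3, Nr1h3, Nr1h4 and Thrb) was 5.41 and 4.61 times that of Rxra in tumours, 4.95 and 3.86 times in the KAP1-deleted livers, and 4.35 and 3.64 times in control livers.

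The family share was computed for Rxra, Nr1h3, Thrb and Nr3c1, and each made up most of its family in every library. Per kb, Rxra made up 86.3% to 90.6% of the summed Rxra, Rxrb and Rxrg level over the 6 libraries, Nr1h3 87.9% to 92% of the LXR pair, Thrb 83.6% to 88.9% of the thyroid hormone receptor pair and Nr3c1 78.5% to 88.7% of the pair with the mineralocorticoid receptor gene Nr3c2.

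**Figure D3:**
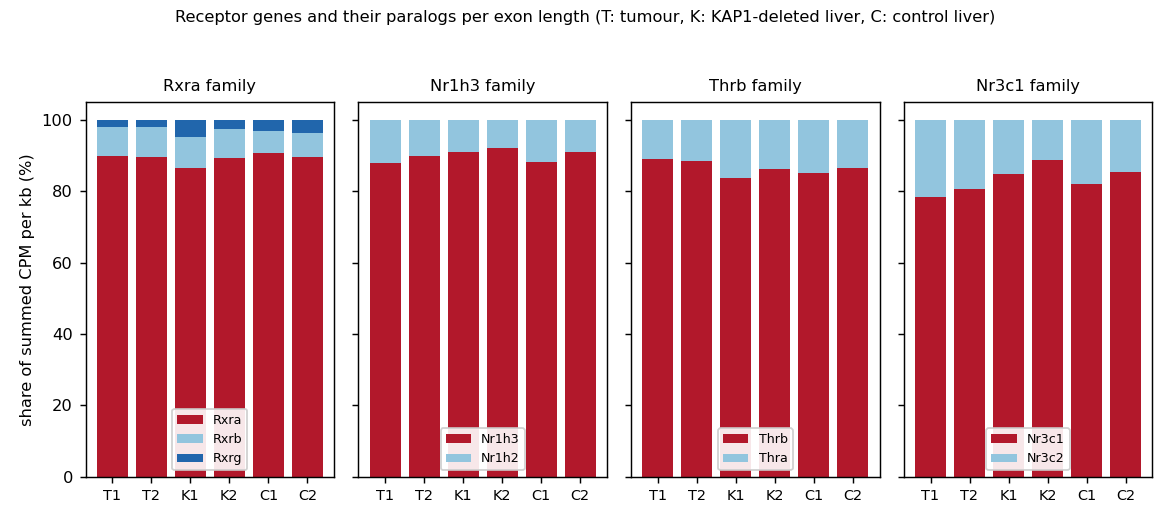
Share of each receptor gene (red) and its paralogs (light and dark blue) in the summed CPM per kb of their family, in percent (vertical axis), per library. T, K and C are tumour, KAP1-deleted liver and control liver. Rxra, Nr1h3, Thrb and Nr3c1 hold 78.5% or more of their family in every library.

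Of 32 other nuclear receptor genes tested, 6 fell and 1 rose in tumours against KAP1-deleted livers and 7 fell and 2 rose against control livers. Among all tested genes 6.64% were lower and 4.8% higher in the first comparison, and 7.76% and 6.15% in the second. These shares are the background of every list count in tumours that follows. Esr1, the estrogen receptor alpha gene, stood at 11 and 12.6 CPM in tumours, 73.0 and 36.3 CPM in the KAP1-deleted livers, and 49.9 and 32.4 CPM in control livers. Its log2 fold change in tumours was -2.21 ± 0.36 against KAP1-deleted livers (edgeR adjusted p 0.0109, and 0.0733, the highest over the alternatives, without tumour 1). Nr6a1, the germ cell nuclear factor gene, had 23.4 and 18.2 CPM in tumours, 11.2 and 9.96 CPM in the KAP1-deleted livers, and 10.2 and 10.4 CPM in control livers. Against control livers its log2 fold change was 1.01 ± 0.19 (edgeR adjusted p 0.0143, and 0.0761, the highest over the alternatives, without tumour 1). Hnf4a, the hepatocyte identity receptor gene, had 188 and 204 CPM in tumours, 300.3 and 406 CPM in the KAP1-deleted livers, and 277 and 440 CPM in control livers, with edgeR adjusted p of 0.0863 and 0.0748. Nr5a2, whose product reads the TCAAGG core, was at 56.4 and 49.1 CPM in tumours, 47.5 and 45.8 CPM in the KAP1-deleted livers, and 49.4 and 47.4 CPM in control livers. Of the counts, the lower one against KAP1-deleted livers was 12 with the replicate block, 10 without control liver 1, 1 without either KAP1-deleted liver, 0 without tumour 1 and 2 without tumour 2. Against control livers the lower count was 3 without control liver 2 and 1 without either tumour, and the higher count was 1 without control liver 1 or either KAP1-deleted liver and 0 without tumour 1.

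Of 22 co-regulators of these receptors tested, 1 rose in each comparison: Tbl1x in tumours against KAP1-deleted livers, and Trim24 in the other comparisons. Of all tested genes 4.8% were higher in tumours against KAP1-deleted livers and 6.15% against control livers. A count of 1 of 22 in tumours is near those shares. In KAP1-deleted against control livers the share was 0.239%. In KAP1-deleted against control livers the call of Trim24 had a log2 fold change of 1.75 ± 0.26 (edgeR adjusted p 0.0474). It was lost at a mean CPM of at least 5 (edgeR adjusted p 0.137, the highest over the alternatives). From the 4 libraries compared the edgeR adjusted p was 0.108, and under upper-quartile scaling it was 0.0795. The call was also lost without control liver 2, KAP1-deleted liver 1 or either tumour. Ncor1, the co-repressor that binds unliganded receptors, had 150 and 143 CPM in tumours, 134 and 133 CPM in the KAP1-deleted livers, and 139 and 133 CPM in control livers. The median log2 fold change of the 22 was 0.09 in tumours against KAP1-deleted livers and 0.11 against control livers. Of 8 genes of steroid receptor chaperones and co-chaperones, 1 fell in tumours: Fkbp5, itself a glucocorticoid target. Fkbp5 had 15.9 and 20.8 CPM in tumours, 39.7 and 48.8 CPM in the KAP1-deleted livers, and 56.2 and 65.2 CPM in control livers. Its log2 fold change was -1.27 ± 0.21 against KAP1-deleted livers (edgeR adjusted p 0.0101, and 0.0687, the highest over the alternatives, without tumour 1) and -1.72 ± 0.21 against control livers (edgeR adjusted p 0.00265). The call of Tbl1x, at a log2 fold change of 0.67 ± 0.17, was lost without either tumour or either KAP1-deleted liver (edgeR adjusted p 0.0756 to 0.267).

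Genes that PXR and CAR are known to induce included several that rose in tumours, while neither Nr1i2 nor Nr1i3 passed the test. Of 14, 6 rose and 0 fell against KAP1-deleted livers, with a median log2 fold change of 0.86, and 6 rose and 1 fell against control livers, with a median of 0.87. Cyp3a11, the main inducible P450 of mouse liver, had 11597 and 9539 CPM in tumours, 1815 and 2672 CPM in the KAP1-deleted livers, and 1083 and 2133 CPM in control livers. Both tumours were above all livers, with a log2 fold change of 2.72 ± 0.42 against control livers (edgeR adjusted p 0.00653). Slco1a4, an organic anion uptake transporter gene, had 600.4 and 388 CPM in tumours, 64.2 and 101 CPM in the KAP1-deleted livers, and 249 and 156 CPM in control livers. Its log2 fold change was 2.58 ± 0.36 against KAP1-deleted livers (edgeR adjusted p 0.00560).

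The tumours did not share 1 pattern over this group. Cyp2c29 stood at 486 and 2380 CPM in tumours 1 and 2, Cyp2c55 at 45.7 and 163 CPM and Abcc4, an export pump gene, at 67.3 and 20.6 CPM. In the same libraries Nr1i3 stood at 183 and 75.9 CPM. Cyp2b10, the gene most often used to read CAR activity, had 0.953 and 4.38 CPM in tumours, 7.99 and 23.5 CPM in the KAP1-deleted livers, and 0.260 and 3.23 CPM in control livers, and did not pass the test in any comparison. Abcc3, another export pump gene, had 10.5 and 29.5 CPM in tumours, 71.0 and 163 CPM in the KAP1-deleted livers, and 150 and 307 CPM in control livers. Several P450 genes are close copies of others, and 84.2% of the 31-base words of Cyp3a11 occur in no other gene. Pericentral hepatocyte markers, whose zone carries much of this P450 expression, summed to 21596 and 19555 CPM in tumours, 6877 and 9716 CPM in the KAP1-deleted livers, and 8601 and 9820.3 CPM in control livers, and their part in the result was not tested. Without either KAP1-deleted liver the higher count against those livers was 2, and the 1 lower gene against control livers, Abcc3, was lost without either control liver, either KAP1-deleted liver or tumour 1. The higher count against control livers was 2 without control liver 2 and 3 without either KAP1-deleted liver, and the replicate block called 2 lower against KAP1-deleted livers.

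**Figure D4:**
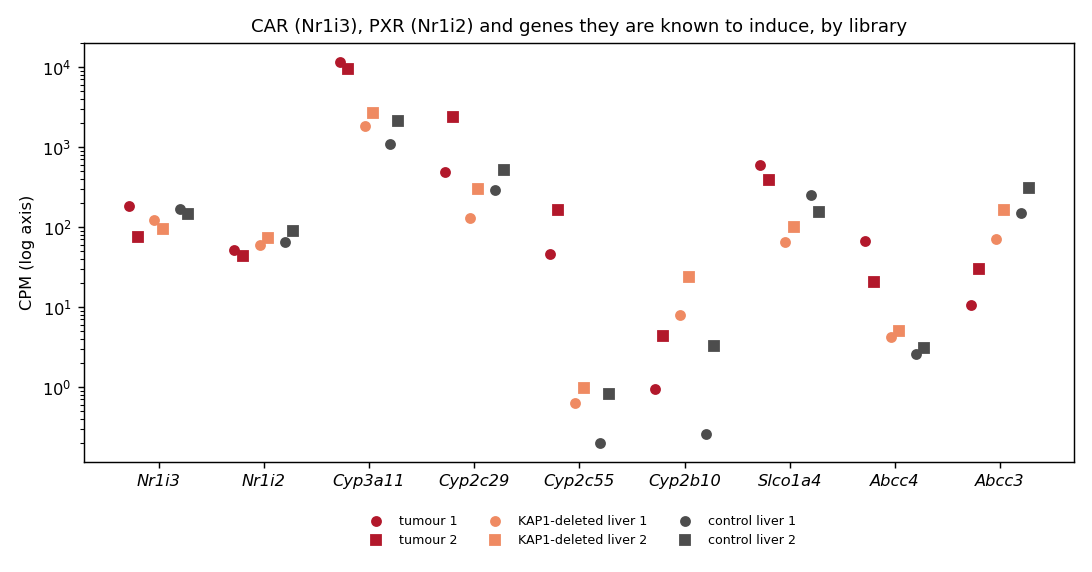
Level in CPM (vertical log axis) of Nr1i3, Nr1i2 and 7 genes they are known to induce, by library. Red points are tumours, orange KAP1-deleted livers and grey control livers, with circles for replicate 1 and squares for replicate 2. Cyp3a11, Slco1a4, Cyp2c55 and Abcc4 lie higher in both tumours than in all livers, and Cyp2b10 is highest in the KAP1-deleted livers.

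Genes that FXR is known to induce were lower in tumours in 3 of 10 tested, with 0 higher, in either tumour comparison, with medians of -0.94 against KAP1-deleted livers and -0.67 against control livers. Sdc1, a heparan sulfate proteoglycan gene that FXR induces in human liver cells, had 45.2 and 51.4 CPM in tumours, 135 and 132 CPM in the KAP1-deleted livers, and 151 and 160 CPM in control livers. Its log2 fold change was -1.47 ± 0.17 against KAP1-deleted livers (edgeR adjusted p 0.00322) and -1.69 ± 0.18 against control livers (edgeR adjusted p 0.00145). The bile salt export pump gene Abcb11, a classical FXR target, had 358 and 564 CPM in tumours, 265 and 390 CPM in the KAP1-deleted livers, and 239 and 393 CPM in control livers (edgeR adjusted p 0.372 and 0.324). Against KAP1-deleted livers the lower count was 6 with DESeq2, with the replicate block and without either control liver, and against control livers it was 5 with DESeq2 and without control liver 1, and 1 under upper-quartile scaling and without any 1 of the other 5 libraries.

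Of the 3 genes that FXR and SHP are known to repress, 2 fell in tumours. Cyp8b1, the sterol 12-alpha-hydroxylase that sets the make-up of bile acids, had 11.3 and 32.9 CPM in tumours, 259.6 and 249 CPM in the KAP1-deleted livers, and 335 and 223 CPM in control livers. Its log2 fold change was -3.66 ± 0.52 against control livers (edgeR adjusted p 0.00761, and 0.0650 and 0.0667 without control liver 1 or 2, the highest over the alternatives) and -3.53 ± 0.52 against KAP1-deleted livers (edgeR adjusted p 0.0102, and 0.0719 and 0.0862 without KAP1-deleted liver 1 or 2, the highest over the alternatives). Slc10a1, the bile acid uptake transporter gene, stood at 17.7 and 63.1 CPM in tumours, 408 and 335 CPM in the KAP1-deleted livers, and 362 and 329 CPM in control livers. Its log2 fold change against KAP1-deleted livers was -3.20 ± 0.57 (edgeR adjusted p 0.0203), with adjusted p of 0.121 under the replicate block and 0.105 to 0.150 without any 1 liver. Cyp7a1, the rate-limiting enzyme of bile acid synthesis, had 952 and 600.3 CPM in tumours, 437 and 238 CPM in the KAP1-deleted livers, and 617 and 187 CPM in control livers, with edgeR adjusted p of 0.237 and 0.336. The count of 2 against KAP1-deleted livers was 1 without either control liver and 0 without either KAP1-deleted liver, and the replicate block gave 1 lower and 1 higher. Against control livers it was 0 without control liver 2, 1 without either KAP1-deleted liver, and 0 lower with 1 higher without control liver 1. The summed level of 8 periportal hepatocyte markers, at 1146 and 1759.5 CPM in tumours, 10939 and 9249 CPM in the KAP1-deleted livers, and 12455 and 7536 CPM in control livers, was also lower in tumours, and its part was not tested.

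Genes that LXR is known to induce were mixed. Of 15, 6 fell and 2 rose in tumours against KAP1-deleted livers and 6 fell and 2 rose against control livers, with medians of -0.75 and -0.80. Lpl rose, with 76.6 and 82.8 CPM in tumours, 22.4 and 16.7 in the KAP1-deleted livers, and 18.1 and 18.4 in control livers. Its log2 fold change was 2.03 ± 0.19 against KAP1-deleted livers (edgeR adjusted p 0.00166) and 2.13 ± 0.20 against control livers (edgeR adjusted p 0.00106). These were the smallest adjusted p of the list. Srebf1, the lipogenic transcription factor gene, had 20.05 and 30.6 CPM in tumours, 51.8 and 53.6 CPM in the KAP1-deleted livers, and 77.4 and 86.1 CPM in control livers, with a log2 fold change of -1.69 ± 0.23 against control livers (edgeR adjusted p 0.00383). Fasn, the fatty acid synthase gene, had 46.0 and 59.5 CPM in tumours, 158 and 121 CPM in the KAP1-deleted livers, and 198 and 146 CPM in control livers, with a log2 fold change of -1.71 ± 0.25 against control livers (edgeR adjusted p 0.00533). Both tumours were below all livers for both genes, whereas the cholesterol export gene Abca1 had 349 and 441 CPM in tumours, 555 and 465 CPM in the KAP1-deleted livers, and 443 and 493 CPM in control livers (edgeR adjusted p 0.322 and 0.516). Against KAP1-deleted livers the lower count was 3 and 2 without KAP1-deleted liver 1 or 2 and 0 without tumour 1, and the higher count was 1 without any 1 of these or of tumour 2. Against control livers the lower count was 2 without tumour 1, and the higher count was 1 without control liver 1 or either tumour.

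Targets of the glucocorticoid receptor fell in tumours where its own gene did not pass the test. Nr3c1 differed by a log2 fold change of 0.01 between tumours and control livers, while 11 of 16 glucocorticoid-induced genes fell, with a median of -1.67. Tat, tyrosine aminotransferase, had 56.7 and 86.0 CPM in tumours, 296 and 374 CPM in the KAP1-deleted livers, and 1049 and 547 CPM in control livers, with a log2 fold change of -3.48 ± 0.38 against control livers (edgeR adjusted p 0.00179). Dusp1, a phosphatase gene quickly induced by glucocorticoids, had 4.52 and 3.73 CPM in tumours, 10.2 and 11.5 CPM in the KAP1-deleted livers, and 8.63 and 9.01 CPM in control livers, with a log2 fold change of -1.10 ± 0.20 against control livers (edgeR adjusted p 0.0120). Tsc22d3, which encodes the glucocorticoid-induced leucine zipper, had 26.4 and 30.9 CPM in tumours, 42.6 and 66.2 CPM in the KAP1-deleted livers, and 66.6 and 108 CPM in control livers, and its log2 fold change against control livers was -1.61 ± 0.30 (edgeR adjusted p 0.0125). Without control liver 1, control liver 2 or tumour 2 the count of 11 was 6, 7 and 6.

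Against KAP1-deleted livers 7 of the 16 fell in tumours, with a median of -1.33, and 4 without KAP1-deleted liver 2, 2 without tumour 1 and 4 under upper-quartile scaling. In KAP1-deleted against control livers the median over the 16 was -0.42 and 12 of them lay below 0, but 0 passed edgeR, 3 had an unadjusted p under 0.05 and DESeq2 called 1. Among the genes that handle the hormone, Srd5a1, a steroid 5-alpha-reductase gene, had 4.85 and 4.61 CPM in tumours, 13.9 and 17.5 CPM in the KAP1-deleted livers, and 18.5 and 23.0 CPM in control livers, with a log2 fold change of -2.14 ± 0.21 against control livers (edgeR adjusted p 0.00126). Hsd11b1, which regenerates active glucocorticoid, had 24.2 and 151 CPM in tumours, 474 and 587 CPM in the KAP1-deleted livers, and 359 and 558 CPM in control livers, with edgeR adjusted p of 0.120 and 0.135. In all, 2 of 5 handling genes fell in either tumour comparison, and 1 without KAP1-deleted liver 2 in the first or without control liver 2 in the second. Some of these glucocorticoid targets are periportal or insulin-regulated genes as well, and Pck1 stands on the periportal list too.

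Of 7 thyroid hormone targets, Dio1 fell in tumours against KAP1-deleted livers and Klf9 against control livers, and either call was lost without either tumour. Dio1, the deiodinase that activates the hormone, had 45.3 and 46.6 CPM in tumours, 138 and 194 CPM in the KAP1-deleted livers, and 57.2 and 158 CPM in control livers, with a log2 fold change of -1.85 ± 0.45 against KAP1-deleted livers (edgeR adjusted p 0.0468, and 0.132 to 0.282 without any 1 of the 4 libraries compared). Klf9 had a log2 fold change of -0.78 ± 0.21 against control livers (edgeR adjusted p 0.0450, and 0.0557 to 0.207 without any 1 of the 4). The transporter gene Slc16a10 rose, with 405 and 444 CPM in tumours, 91.9 and 112 CPM in the KAP1-deleted livers, and 122 and 89.6 CPM in control livers and a log2 fold change of 2.06 ± 0.23 against KAP1-deleted livers (edgeR adjusted p 0.00278). With the replicate block 3 of the 7 targets were called lower. The main fit gave 1 of 7 lower in either tumour comparison, beside 6.64% of all genes against KAP1-deleted livers and 7.76% against control livers. Klf9 stands on the glucocorticoid list too. Of 5 genes that handle the hormone, Slc16a10 rose against KAP1-deleted livers and Dio1, already counted among the targets, fell. The lower call was lost without any 1 of the 4 libraries compared.

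Of 12 retinoid genes, 3 fell in tumours against KAP1-deleted livers and 2 against control livers, with medians of -0.95 and -0.84. Beside these and the ROR counts below, 6.64% and 7.76% of all tested genes were lower. Cyp26b1, which clears retinoic acid, had 0.331 and 0.533 CPM in tumours, 4.91 and 4.66 CPM in the KAP1-deleted livers, and 4.30 and 3.89 CPM in control livers, with a log2 fold change of -3.48 ± 0.30 against KAP1-deleted livers (edgeR adjusted p 0.00127). The count against KAP1-deleted livers was 7 with the replicate block, 6 and 5 without control liver 1 or 2, and 1 without either KAP1-deleted liver or tumour 1 and under upper-quartile scaling. Against control livers it was 7 with DESeq2, 5 without control liver 1, and 1 without control liver 2 and under upper-quartile scaling. Of 8 genes that ROR proteins are known to drive, 2 fell against KAP1-deleted livers and 4 against control livers. Cyp8b1, already counted among the genes that FXR and SHP repress, and Elovl3, a fatty acid elongase gene, were among both. Elovl3 had 1.22 and 3.14 CPM in tumours, 19.2 and 27.4 CPM in the KAP1-deleted livers, and 19.98 and 44.1 CPM in control livers, with a log2 fold change of -3.90 ± 0.60 against control livers (edgeR adjusted p 0.0125, and 0.0664 without control liver 2, 0.0640 and 0.0597 without KAP1-deleted liver 1 or 2, and below 0.05 in the other alternatives). The ROR count against control livers was 1 without control liver 2, and that against KAP1-deleted livers was 0 without either KAP1-deleted liver and 4 with the replicate block.

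**Figure D5:**
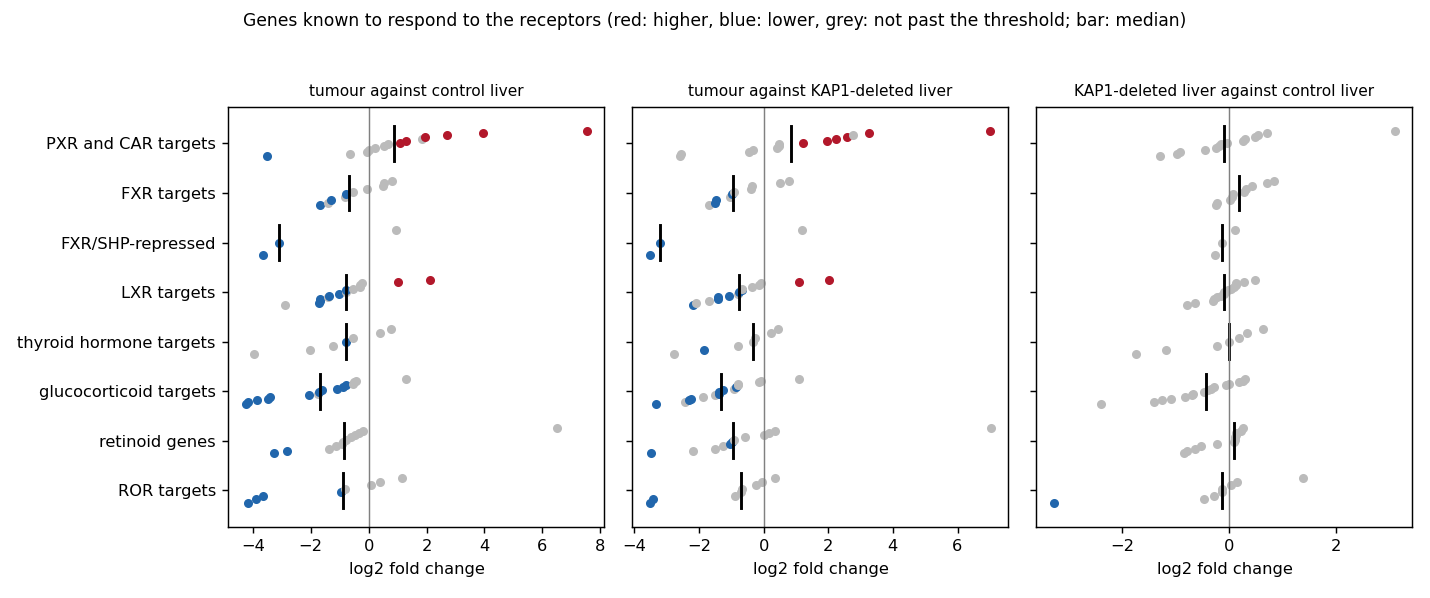
Log2 fold change (horizontal axis) of every tested gene in 8 lists of genes known to respond to the receptors, in 3 comparisons. Red points passed the edgeR test as higher, blue as lower and grey did not pass, and the bar is the list median. PXR and CAR targets have medians of 0.87 and 0.86 in the tumour comparisons, and glucocorticoid targets -1.67 and -1.33.

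For the 3 receptor genes with the widest range between groups, the genes with the most similar profile over the 6 libraries were named by the root mean square difference of centred log2 CPM among 6865 candidates. Those nearest to Nr1h4 were Gm12840 (0.05), Entpd8 (0.06) and Rpain (0.06). Those nearest to Rxra were Map2k2 (0.06), Pipox (0.07) and Timd2 (0.07). Those nearest to Nr0b2 were Prnp (0.13), Cyp4f14 (0.16) and Prelp (0.18), so Nr0b2 had the least close match. The range of group mean log2 CPM was 1.33 for Nr0b2, 0.91 for Rxra and 0.82 for Nr1h4, and 0.20 for Thrb, the flattest of the 9.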

How the data were processed

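Total RNA was sequenced as strand-marking TruSeq libraries, per the labels' protocols, which speak of cell lines although all samples are labelled as tissue. The authors deposited raw counts of reads per Ensembl gene for each library, made with TopHat, with no version given here, and with HTSeq 0.6.1 on build mm9, per the submitters' processing notes. The annotation, the strand setting and any read filters were not given in the sources used here. Entries naming no gene (20.9% to 36.7% of the counted reads) were left out, and all libraries carry the same batch label.

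Genes were kept by filterByExpr (minimum count 10, minimum total 15), scaled by TMM and fitted with 1 mean per group over all 6 libraries by a robust quasi-likelihood fit in edgeR 4.0.16 (R 4.3.3), with 3 residual degrees of freedom, a biological coefficient of variation of 0.230 and Benjamini-Hochberg adjustment over 17558 genes at 0.05. The fit was tested on simulated data. Alternatives were DESeq2 1.42.0, limma-voom (limma 3.58.1), other scalings and filters, leaving out each library, and a mouse block. Tumours and KAP1-deleted livers with the same code come from the same mouse, and their deviations correlated with r = 0.185 across genes. Replicates differed beyond sampling noise (a chi-square over genes divided by its degrees of freedom was 82.6 or more), so none was merged.

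Symbols matched 32919 of 37991 identifiers. Exon lengths are unions of exons in GENCODE M21 (GRCm38), and promoters are RefSeq's of GRCm38.p6, which gave none for Nr3c1. The receptor genes and lists were chosen with earlier results of these data known. Named genes are the 9 receptors, Trim28, up to 3 called members of each list with the smallest adjusted p, or the 1 with the smallest p where none was called, and the most similar profiles. Other list members named in the text were chosen after their values were seen. A result on related genes is not reported here.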

Additional observations from a re-analysis of the deposited data

How the results depend on the processing

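Of 387 alternative values of single receptor genes, 376 kept their direction. The 11 that did not all left out 1 library and concerned genes that the reported fit called in no comparison. In KAP1-deleted against control livers the log2 fold changes with 1 library left out spanned -0.060 to 0.52 for Nr1h3, -0.58 to 0.40 for Nr0b2, -0.10 to 0.28 for Thrb and -0.32 to 0.074 for Rora. In tumours they spanned -0.52 to 0.74 for Nr1i3 against KAP1-deleted livers, and against control livers -1.04 to 0.22 for Nr1i3, -0.30 to 0.11 for Thrb and -0.093 to 0.10 for Nr3c1. The cause was not tested.

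The count of receptor genes called in tumours against KAP1-deleted livers, 0 in the reported fit, was 2 with no filter on low counts, 1 from the 4 libraries compared, 2 with the replicate block and 0 to 1 with 1 library left out. Against control livers it was 4 with no filter and 0 to 5 with 1 library left out. Over all genes, KAP1-deleted against control livers had 59 calls, 230 with DESeq2, 38 with limma-voom, 17 at a mean CPM of at least 5, 571 with no filter, 20 from the 4 libraries compared and 30 to 75 with 1 library left out. Tumours against KAP1-deleted livers had 2007 calls, 1228 at a mean CPM of at least 5, 3819 with no filter, 3889 with the replicate block and 640 to 2715 with 1 library left out. Tumours against control livers had 2443 calls, 1432 at a mean CPM of at least 5, 4115 with no filter and 1103 to 2621 with 1 library left out. The calls in tumours against KAP1-deleted livers split into 842 higher and 1165 lower, and into 970 and 896 under upper-quartile scaling. The block changed no receptor call other than those of Nr1h3 and Nr0b2. At 1.89 to 9.90 CPM, Nr0b2 is the receptor gene that depth limits most. Where 1 library is left out, its partner is assumed to vary like the other groups.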

Other observations

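Genes next to the receptor genes on their chromosomes were read as a description, 5 tested genes on each side. Values are given for the 3 receptor genes with the widest range, in tumours against KAP1-deleted livers. The median log2 fold change over all tested genes was -0.03 there. Around Nr0b2 the median of the 10 neighbours was -0.50, with 8 of 10 below 0, beside -1.18 for Nr0b2. Of these 10, 1 was called higher and 0 lower. Around Rxra the median was -0.42, with 7 of 10 below 0, 0 called higher and 1 lower, beside -0.55 for Rxra. Around Nr1h4 it was 0.35, with 3 of 10 below 0 and 0 called in either direction, beside -0.44 for Nr1h4. Aldh1a2, which makes retinoic acid, stood at 0.621 CPM in tumour 1 and 23.3 CPM in tumour 2, against 0.0681 and 0.106 CPM in the KAP1-deleted livers, and 0.115 and 0.136 CPM in control livers, and did not pass the edgeR test. Serpina6, which encodes the carrier of glucocorticoids in blood, stood at 84.2 and 118 CPM in tumours, 9.02 and 28.4 CPM in the KAP1-deleted livers, and 30.7 and 92.5 CPM in control livers, and did not pass the edgeR test either.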
